A study of Mus musculus with 11 samples.

Results

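Lysosome and autophagy genes were followed in HSCs, the hematopoietic stem cells of the mouse bone marrow, which give rise to all blood lineages. The 36 genes were a set list: 6 lysosomal membrane proteins, 8 proteases, 8 glycosidases, 3 genes of lipid handling, 9 genes of the autophagy machinery and 2 transcription factors. Of these, 35 had a probe set assigned to them alone, among 22180 such genes. Glb1, the lysosomal beta-galactosidase, had none and was not analysed here. The HSCs were sorted by flow cytometry from injected mice, and total RNA was measured on 11 Affymetrix arrays. The RApIC group (3 arrays) came from mice injected with ATRA and polyIC, the pIC group (2 arrays) from mice given polyIC alone, the ATRA group (3 arrays) from mice given ATRA alone and the PBS group (3 arrays) from mice given PBS. ATRA is all-trans retinoic acid, the active form of vitamin A, and polyIC is a double-stranded RNA mimic that sets off an interferon response. The sources used here give no strain, age, dose, time or sorting gate. No label says that replicates came from separate mice, so p-values measure the spread between these samples, which may be technical.

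Lysosomes are acidic organelles in which proteases, glycosidases and lipases break down material from endocytosis and autophagy. In autophagy, the ULK1 kinase starts the process, the lipid kinase complex that contains Beclin 1 marks the forming membrane, and the ATG5, ATG7 and ATG12 conjugation system attaches LC3 and GABARAP proteins to it. TFEB is a transcription factor that drives many lysosomal genes through a promoter element called CLEAR, and in mouse HSCs FOXO3 is known to sustain the expression of autophagy genes. Autophagy and lysosomes have been linked to the maintenance of quiescent mouse HSCs.

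The pIC arrays differed from the PBS arrays in both directions: Lamp2, Scarb2, Ctsz and Becn1 rose, while Ctsh, Map1lc3b, Gabarapl1, Ulk1, Gaa and Psap fell. Ctsh, which encodes the aminopeptidase cathepsin H, had the lowest difference, at 0.505 times the PBS level. The same side of zero was found for these 10 genes between the RApIC and ATRA arrays, a comparison with no array in common with the first. There 7 members passed the test and all 7 fell. ATRA alone changed no member beyond the threshold. A gene was called where the Benjamini-Hochberg adjusted p over all 22180 genes of the comparison was under 0.05 in a limma fit of the log2 values, and differences are given as log2 ± standard error.

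The share of called members has to be read against the share of all genes. In pIC versus PBS, 10 of 35 members (28.6%) were called, against 14.7% of all genes, with 4 higher (8.94% of all genes) and 6 lower (5.75% of all genes). All 35 members lay above the dimmest 40% of genes. When those dim genes were left out of the fit, the same comparison called 10 members and 28.7% of the remaining genes, so the members' share was close to that of the other brighter genes. In RApIC versus ATRA, 7 of 35 members (20%) were called, all lower, against 7.21% of all genes (3.71% lower). Without the dim genes, 9 members and 16% of genes were called there. In RApIC versus PBS, 3 members (8.57%) were called, all lower, against 3.11% of all genes (1.51% lower). In a fit without the dim genes, that comparison called 7 members and 9.11% of genes. In ATRA versus PBS, 0 members were called by limma, against 0.00451% of all genes, and in RApIC versus pIC 0 members, against 0% of all genes. At an unadjusted p under 0.05, these last 2 comparisons held 3 and 1 members, against 6.8% and 10.1% of all genes.

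**Figure D1:**
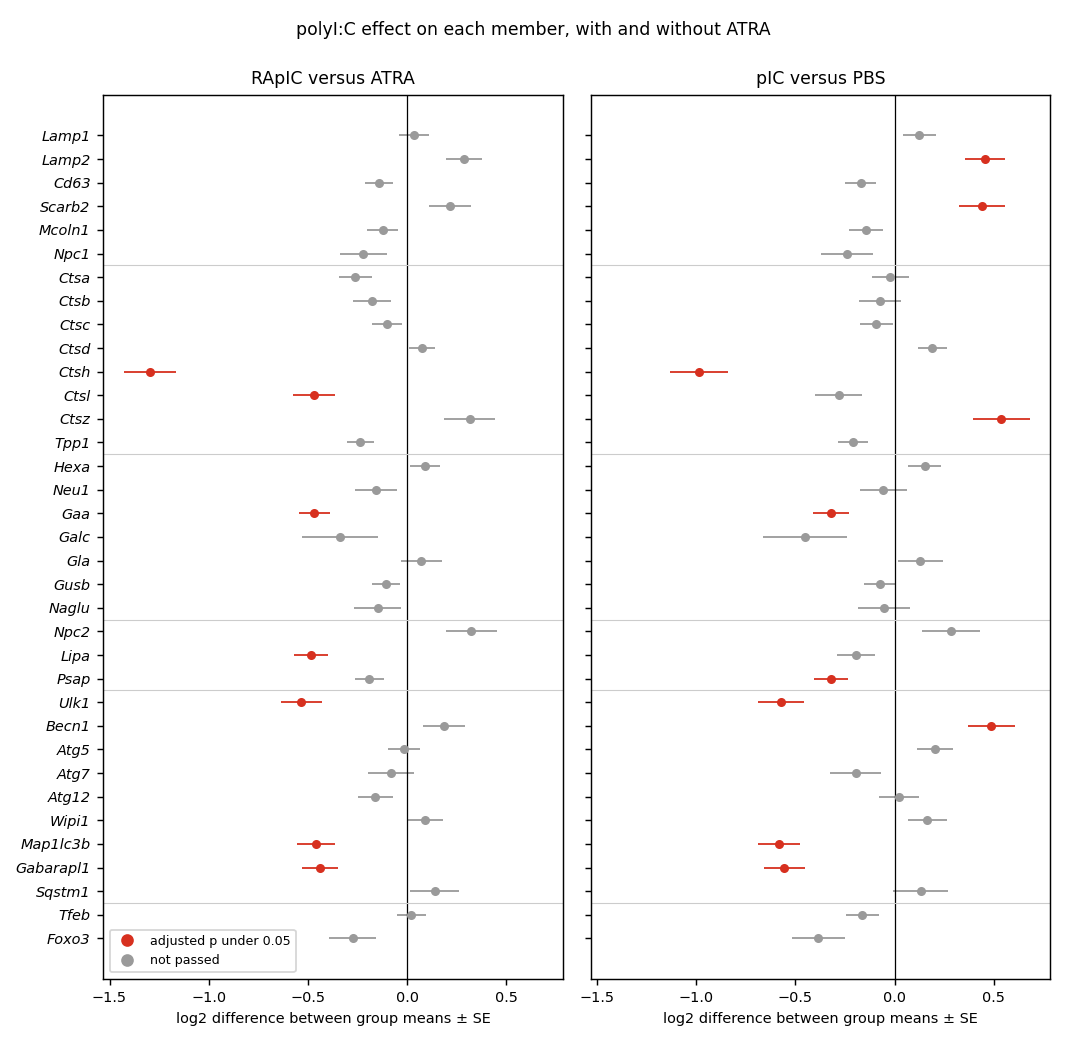
Log2 difference between group means (horizontal axis, ± standard error) of the 35 measured members, by role, for RApIC versus ATRA (left) and pIC versus PBS (right); red points had an adjusted p under 0.05. Ctsh lies farthest left in both panels, at -1.29 in RApIC versus ATRA and at -0.99 in pIC versus PBS.

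Promoters were read because lysosomal genes are known to share the CLEAR element. RefSeq promoter windows (build GRCm38.p6, 250 bases before to 50 after the annotated start) were matched for 31 of the 36 genes, but not for Npc1, Ctsb, Ctsh, Becn1 and Atg12. The annotated start of a window is not always the outer end of the gene. For Ctsl, Ctsa and Ulk1 it lay inside the gene's annotated span, so part or all of the bases before it were within the gene. The motifs searched on both strands were the E-box CACGTG, the CLEAR core GTCACGTG, which contains the E-box, the forkhead motif GTAAACA and a motif like the interferon-stimulated response element (ISRE). Each sequence below gives the 120 bases just before the annotated start, 5′ to 3′ on the gene's strand, with each CACGTG in capitals. First come 4 members with a CLEAR core that were called in no comparison: Lamp1 at chr8:13159041-13159160 (plus strand), Mcoln1 at chr8:3500399-3500518 (plus strand), Ctsd at chr7:142387828-142387947 (minus strand) and Naglu at chr11:101069974-101070093 (plus strand). Then come 4 called members with no E-box in the window: Map1lc3b at chr8:121590318-121590437 (plus strand), Gabarapl1 at chr6:129533072-129533191 (plus strand), Ulk1 at chr5:110810082-110810201 (minus strand) and Lamp2 at chrX:38456461-38456580 (minus strand).
Lamp1: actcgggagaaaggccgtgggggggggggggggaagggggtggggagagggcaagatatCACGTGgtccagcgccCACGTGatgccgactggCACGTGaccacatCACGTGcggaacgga
Mcoln1: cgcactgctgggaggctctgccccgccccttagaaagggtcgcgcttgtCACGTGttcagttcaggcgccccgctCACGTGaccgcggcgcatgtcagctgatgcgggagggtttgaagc
Ctsd: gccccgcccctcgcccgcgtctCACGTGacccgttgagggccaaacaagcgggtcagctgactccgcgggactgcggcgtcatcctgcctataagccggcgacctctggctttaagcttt
Naglu: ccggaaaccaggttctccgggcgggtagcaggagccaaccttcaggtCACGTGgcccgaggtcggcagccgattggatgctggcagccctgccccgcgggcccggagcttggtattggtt
Map1lc3b: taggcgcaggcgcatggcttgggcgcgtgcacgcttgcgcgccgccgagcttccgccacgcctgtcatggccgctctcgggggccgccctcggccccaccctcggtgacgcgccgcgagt
Gabarapl1: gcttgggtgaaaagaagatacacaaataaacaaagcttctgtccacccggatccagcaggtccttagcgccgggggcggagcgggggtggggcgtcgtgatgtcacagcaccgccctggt
Ulk1: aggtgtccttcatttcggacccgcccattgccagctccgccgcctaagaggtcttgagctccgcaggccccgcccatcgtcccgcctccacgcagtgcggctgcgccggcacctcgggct
Lamp2: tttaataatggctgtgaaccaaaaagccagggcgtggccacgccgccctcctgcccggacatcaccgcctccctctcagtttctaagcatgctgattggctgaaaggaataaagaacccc

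The CLEAR core was found in 8 of 31 member windows (25.8%), against 689 of 27025 genes with a window (2.55%). These 8 genes were Lamp1, Mcoln1, Ctsa, Ctsd, Gla, Glb1, Naglu and Atg7. None of the 10 called members with a window held it, against 7 of the 20 measured members that were not called. The E-box was found in 11 of 31 member windows (35.5%), against 8.09% of genes. Among called members it stood in Gaa and Ctsl, 2 of 10, against 8 of 20 that were not called. The ISRE-like motif occurred in 1 window, that of Lamp1, against 3.99% of genes, and the forkhead motif in 0 of 31, against 4.05% of genes. A match describes letters in this window and is not evidence of a bound site.

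**Figure D2:**
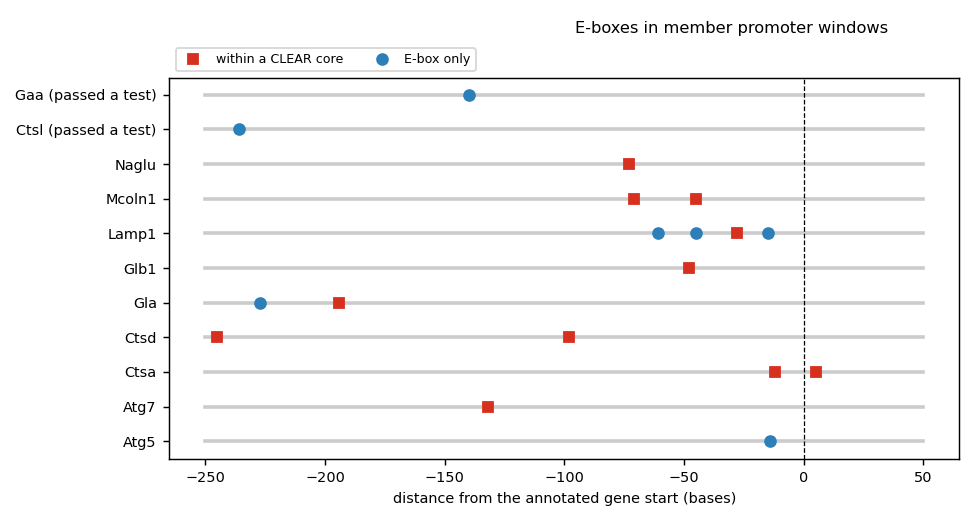
Position of each E-box (points, first base) in the promoter windows of the 11 members that hold one, in bases from the annotated start used for each window, which can lie inside the gene; red squares lie within a CLEAR core. Gaa and Ctsl, the only 2 of these members that were called in a comparison, hold an E-box without a CLEAR core.

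Array quality and cell identity bear on all values. Along principal component 1 (56% of the variance), RApIC replicate 2 lay at -4.53, while RApIC replicates 1 and 3 lay at 35.8 and 23.3, the pIC arrays at 35 and 37.8, and the ATRA and PBS arrays between -24.5 and -15.2. Its median over 22 interferon target genes was 1.11 log2 units above the PBS mean, against 2.34 for the highest RApIC array, so the counts of members called in RApIC versus ATRA and RApIC versus PBS, and the members whose calls there depend on it, are also given without it. Of 10 measured HSC markers, 7 fell in pIC versus PBS (median -0.69), 6 fell in RApIC versus ATRA and 3 fell in RApIC versus PBS. When single arrays were left out, 2 to 7, 2 to 8 and 2 to 8 fell. Their median per array was -0.72 to -0.27 in RApIC, -0.71 to -0.64 in pIC, 0.02 to 0.11 in ATRA and -0.05 to 0.03 in PBS, in log2 units from the PBS mean. Since lysosomal genes are highly expressed in macrophages, 15 macrophage and monocyte markers were read as well, and Fcgr1, Ly6c2 and Mpeg1 rose in pIC versus PBS (list median 0.06, with 2 to 4 genes higher when single arrays were left out). Their summed log2 levels were 103.2 to 107.0 in RApIC, 105.6 to 106.6 in pIC, 99.2 to 100.1 in ATRA and 96.3 to 97.9 in PBS. A sum is moved by a few genes with large differences, such as Mpeg1 and Ly6c2. The median per array was 0.06 to 0.25 in RApIC, 0.04 to 0.08 in pIC, 0.09 to 0.17 in ATRA and -0.11 to 0.05 in PBS. The defining markers Csf1r (6.18 in pIC, 6.07 in PBS) and Adgre1 (5.09 in pIC, 5.39 in PBS) did not pass. No other marker of the list passed there, among them the brighter Cd68 (8.54 in pIC, 8.60 in PBS) and Cx3cr1 (7.33 and 7.34). Lyz2 (7.79 in pIC, 8.51 in PBS) was lower and Itgam (7.13 and 6.46) higher, also without passing. Over all 11 arrays Csf1r reached at most 6.36, on RApIC replicate 3, and Adgre1 at most 5.49. The array medians over all probe sets, including those not assigned to a gene, were 6.19 to 6.28. Among genes alone, a mean of 6.37 over the arrays, that of Tfeb, lay at percentile 46.45. Among T and NK cell markers 2 of 18 rose in pIC versus PBS (0 to 8 with single arrays left out), and their median per array was 0.04 to 0.90 in RApIC, 0.30 to 0.67 in pIC, 0.06 to 0.11 in ATRA and -0.11 to 0.06 in PBS. Among erythroid markers 5 of 11 rose (2 to 7), with a median of -0.24 to 0.41 in RApIC, 0.95 to 0.98 in pIC, -0.38 to -0.18 in ATRA and -0.17 to 0.11 in PBS. Among megakaryocyte and platelet markers 6 of 13 rose (2 to 6), including Itgb3 2.14-fold and F2rl2 1.96-fold, and Pf4 and Vwf fell by 0.70 and 0.78 on the log2 scale (1 to 2 lower), so that the median was 0.13 to 0.39 in RApIC, -0.13 to -0.05 in pIC, -0.34 to -0.11 in ATRA and -0.06 to 0.05 in PBS. Of all genes, 8.94% rose and 5.75% fell in pIC versus PBS. Within RApIC, replicate 2 alone gave the low end for T and NK cell markers (0.04) and erythroid markers (-0.24). Replicates 1 and 3 lay at 0.90 and 0.81 for the former and at 0.41 and 0.38 for the latter. For HSC markers replicate 2 lay at -0.27, and replicates 1 and 3 at -0.72 and -0.61. The part of these shifts in the member results was not tested. In bulk samples, fewer cells of a type and less RNA per cell cannot be told apart.

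**Figure D3:**
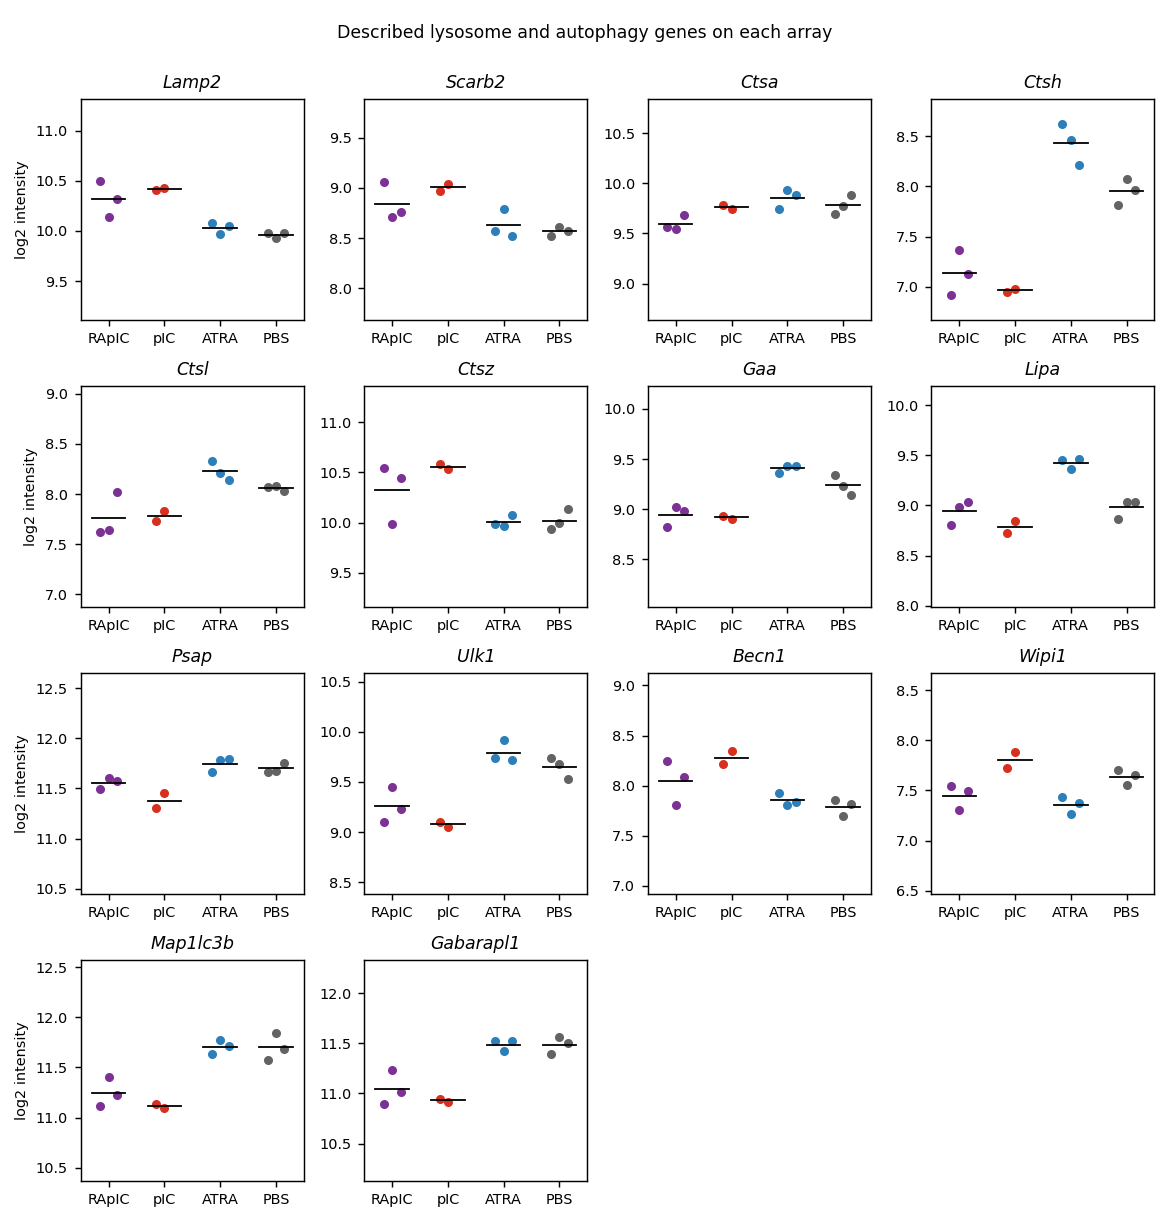
Log2 intensity (vertical axis) of the 14 described members on each array, with points for arrays and lines for group means. The pIC points of Ctsh, Map1lc3b, Gabarapl1 and Ulk1 lie below all PBS points, and those of Lamp2, Ctsz and Becn1 above them.

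Among lysosomal membrane proteins, 2 of 6 rose in pIC versus PBS. Lamp2, a heavily glycosylated protein of the lysosomal membrane that takes part in fusion with autophagosomes, read 10.50, 10.14 and 10.32 in RApIC, 10.41 and 10.42 in pIC, 10.08, 9.97 and 10.04 in ATRA, and 9.98, 9.93 and 9.98 in PBS (log2 intensity, replicates in order). Both pIC arrays lay above all PBS arrays, and all RApIC arrays above all ATRA arrays. The difference was 0.45 ± 0.10 for pIC versus PBS (adjusted p = 0.0148) and 0.29 ± 0.09 for RApIC versus ATRA (adjusted p = 0.0853). Without RApIC replicate 2 the RApIC versus ATRA difference was 0.38 (adjusted p = 0.0116). Scarb2, the receptor that carries glucocerebrosidase to lysosomes, read 9.06, 8.71 and 8.76 in RApIC, 8.97 and 9.04 in pIC, 8.57, 8.79 and 8.52 in ATRA, and 8.52, 8.61 and 8.57 in PBS. The pIC and PBS arrays did not overlap, whereas ATRA replicate 2 lay above RApIC replicates 2 and 3. Scarb2 rose by 0.44 ± 0.12 in pIC versus PBS (adjusted p = 0.0299). The other members of this group did not pass in any comparison. Lamp1, the partner of Lamp2 in the lysosomal membrane, differed by 0.12 ± 0.08 in pIC versus PBS, and Cd63, Mcoln1 and Npc1 by -0.17, -0.14 and -0.24.

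The proteases held both the strongest fall and a rise. Ctsh read 6.92, 7.37 and 7.13 in RApIC, 6.95 and 6.98 in pIC, 8.62, 8.47 and 8.22 in ATRA, and 7.81, 8.07 and 7.96 in PBS. Every array with polyIC lay below every array without it, and all ATRA arrays lay above all PBS arrays. The difference was -0.99 ± 0.15 in pIC versus PBS (adjusted p = 0.00319), -1.29 ± 0.13 in RApIC versus ATRA (adjusted p = 0.000921) and -0.81 ± 0.13 in RApIC versus PBS (adjusted p = 0.0115). The first 2 calls held without any single array, and Ctsh was the only member to do so in pIC versus PBS. Against PBS, ATRA alone gave 0.49 ± 0.13 for Ctsh, which did not pass (adjusted p = 0.415).

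Ctsz encodes cathepsin Z, a lysosomal carboxypeptidase. It read 10.54, 9.98 and 10.45 in RApIC, 10.58 and 10.53 in pIC, 9.98, 9.96 and 10.08 in ATRA, and 9.94, 9.99 and 10.13 in PBS. The pIC arrays and RApIC replicates 1 and 3 lay above all others, while RApIC replicate 2 lay within the range of the ATRA and PBS arrays. Ctsz rose by 0.54 ± 0.14 in pIC versus PBS (adjusted p = 0.0304). In RApIC versus ATRA it differed by 0.31 ± 0.13 (adjusted p = 0.180), and by 0.48 without RApIC replicate 2 (adjusted p = 0.00452).

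Ctsl, the endopeptidase cathepsin L, read 7.62, 7.65 and 8.02 in RApIC, 7.73 and 7.83 in pIC, 8.33, 8.21 and 8.14 in ATRA, and 8.07, 8.08 and 8.03 in PBS. Arrays with polyIC lay below those without it, RApIC replicate 3 only just so. Ctsl fell by 0.47 on the log2 scale (SE 0.11) in RApIC versus ATRA (adjusted p = 0.0275), and differed by -0.28 ± 0.12 in pIC versus PBS (adjusted p = 0.150). Ctsa, which protects beta-galactosidase and neuraminidase in the lysosome, read 9.56, 9.55 and 9.68 in RApIC, 9.78 and 9.75 in pIC, 9.75, 9.93 and 9.89 in ATRA, and 9.69, 9.78 and 9.89 in PBS. The RApIC arrays were the lowest and did not overlap with any other group, but its difference of -0.26 ± 0.08 from ATRA did not pass (adjusted p = 0.0841). Ctsb and Ctsd, the abundant cathepsins B and D, differed by -0.07 ± 0.11 and 0.19 ± 0.07 in pIC versus PBS and did not pass. Tpp1 and Ctsc did not pass either, at -0.21 and -0.09 in the same comparison. Under cyclic loess Tpp1 did pass there (adjusted p = 0.0211). Tpp1 also differed by -0.24 ± 0.07 in RApIC versus ATRA (adjusted p = 0.0694) and by -0.28 ± 0.07 in RApIC versus PBS (adjusted p = 0.0563). These 2 differences passed under cyclic loess, without the dim genes, with a trend and robust prior and with array weights.

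Of the 7 measured glycosidases, 1 was called. Gaa, the acid alpha-glucosidase that degrades glycogen in lysosomes, read 8.82, 9.02 and 8.98 in RApIC, 8.94 and 8.90 in pIC, 9.37, 9.43 and 9.43 in ATRA, and 9.35, 9.24 and 9.14 in PBS. Every array with polyIC lay below every array without it. Gaa fell by 0.47 on the log2 scale (SE 0.08) in RApIC versus ATRA (adjusted p = 0.00914), a call that held without any single array. It also fell by 0.32 (SE 0.09) in pIC versus PBS (adjusted p = 0.0366). That second call was lost without any of 8 of the 11 arrays in turn, PBS replicate 3 and RApIC replicates 1 and 2 being the exceptions. Hexa, the alpha subunit of beta-hexosaminidase, differed by 0.15 ± 0.08 in pIC versus PBS and did not pass. Galc had the widest spread of these enzymes, with 6.58 to 7.19 in RApIC, 6.59 to 6.67 in pIC, 7.09 to 7.49 in ATRA and 6.72 to 7.41 in PBS, and its difference of -0.45 ± 0.21 in pIC versus PBS did not pass. Neu1, Gla, Gusb and Naglu lay between -0.08 and 0.13 in that comparison.

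In lipid handling, Psap encodes the precursor of the saposins, cofactors of sphingolipid breakdown. It read 11.49, 11.60 and 11.57 in RApIC, 11.31 and 11.45 in pIC, 11.66, 11.78 and 11.79 in ATRA, and 11.67, 11.68 and 11.76 in PBS. Arrays with polyIC lay below arrays without it. Psap fell by 0.32 on the log2 scale (SE 0.08) in pIC versus PBS (adjusted p = 0.0280) and differed by -0.19 ± 0.07 in RApIC versus ATRA (adjusted p = 0.167). Lipa encodes the acid lipase that hydrolyses cholesteryl esters and triglycerides. It read 8.81, 8.99 and 9.03 in RApIC, 8.72 and 8.84 in pIC, 9.45, 9.36 and 9.46 in ATRA, and 8.87, 9.04 and 9.04 in PBS. The 3 ATRA arrays stood above all 8 others, and the RApIC and PBS arrays overlapped. Lipa fell by 0.48 (SE 0.09) in RApIC versus ATRA (adjusted p = 0.0107), which held without any single array, while the 0.44 ± 0.09 of ATRA versus PBS did not pass (adjusted p = 0.182). In pIC versus PBS it differed by -0.20 ± 0.10. Npc2, which binds cholesterol in the lysosome, differed by 0.29 ± 0.14 in pIC versus PBS and by 0.32 ± 0.13 in RApIC versus ATRA, neither passing. Without RApIC replicate 2, the RApIC versus ATRA difference of Npc2 was 0.49 (adjusted p = 0.00525).

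Of the 9 autophagy machinery genes, 3 fell and 1 rose in pIC versus PBS. Ulk1, the initiating kinase, read 9.10, 9.45 and 9.23 in RApIC, 9.10 and 9.05 in pIC, 9.74, 9.92 and 9.72 in ATRA, and 9.74, 9.68 and 9.53 in PBS. All arrays with polyIC lay below all arrays without it. Ulk1 fell by 0.57 (SE 0.12) in pIC versus PBS (adjusted p = 0.0103) and by 0.53 (SE 0.10) in RApIC versus ATRA (adjusted p = 0.0149).

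Map1lc3b encodes LC3B, the protein coupled to lipid on autophagosome membranes. It read 11.12, 11.41 and 11.22 in RApIC, 11.14 and 11.10 in pIC, 11.63, 11.77 and 11.72 in ATRA, and 11.57, 11.84 and 11.69 in PBS. Gabarapl1, a member of the same protein family, read 10.90, 11.23 and 11.01 in RApIC, 10.94 and 10.92 in pIC, 11.52, 11.42 and 11.52 in ATRA, and 11.40, 11.56 and 11.50 in PBS. For both genes, arrays with polyIC lay below arrays without it and the ATRA and PBS arrays overlapped. Map1lc3b fell by 0.58 (SE 0.11) in pIC versus PBS (adjusted p = 0.00709), by 0.46 (SE 0.10) in RApIC versus ATRA (adjusted p = 0.0194) and by 0.45 (SE 0.10) in RApIC versus PBS (adjusted p = 0.0346). Gabarapl1 fell by 0.56 (SE 0.10), 0.44 (SE 0.09) and 0.44 (SE 0.09) in these 3 comparisons, in the same order (adjusted p = 0.00730, 0.0201 and 0.0336).

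Becn1, which encodes Beclin 1 of the lipid kinase complex, moved the other way. It read 8.24, 7.81 and 8.08 in RApIC, 8.22 and 8.34 in pIC, 7.93, 7.81 and 7.84 in ATRA, and 7.86, 7.70 and 7.81 in PBS. The pIC arrays lay above all PBS arrays, while RApIC replicate 2 lay among the ATRA and PBS arrays. Becn1 rose by 0.49 ± 0.12 in pIC versus PBS (adjusted p = 0.0221) and differed by 0.19 ± 0.11 in RApIC versus ATRA (adjusted p = 0.367). Without RApIC replicate 2 the RApIC versus ATRA comparison gave 0.30 (adjusted p = 0.0493). Wipi1, which binds the lipid made by that complex, read 7.55, 7.31 and 7.49 in RApIC, 7.72 and 7.88 in pIC, 7.43, 7.26 and 7.37 in ATRA, and 7.70, 7.55 and 7.65 in PBS. It was lower in both groups with ATRA than in their counterparts without it, with no overlap, at -0.35 ± 0.10 in RApIC versus pIC (adjusted p = 0.310) and -0.28 ± 0.09 in ATRA versus PBS (adjusted p = 0.566), neither of which passed. Sqstm1, the cargo receptor p62, differed by 0.13 ± 0.14 in pIC versus PBS, and Atg5, Atg7 and Atg12 of the conjugation system by 0.20, -0.20 and 0.02, and none passed in any comparison.

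Neither transcription factor was called. Foxo3 read 8.13, 8.62 and 8.32 in RApIC, 8.24 and 8.12 in pIC, 8.63, 8.50 and 8.76 in ATRA, and 8.63, 8.50 and 8.56 in PBS. The pIC arrays lay below all PBS arrays, with a difference of -0.38 ± 0.13 (adjusted p = 0.0803). It passed in 5 alternatives: cyclic loess (adjusted p = 0.0431), a fit of only the pIC and PBS arrays (0.0391), array weights (0.0274), and fits without RApIC replicate 1 (0.0464) or RApIC replicate 2 (0.0254). Between RApIC and ATRA it differed by -0.27 ± 0.12 (adjusted p = 0.211), and by -0.40 without RApIC replicate 2 (adjusted p = 0.0239). Tfeb differed by -0.16 ± 0.08 in pIC versus PBS (adjusted p = 0.247) and by 0.02 ± 0.08 in RApIC versus ATRA (adjusted p = 0.917).

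The comparisons pIC versus PBS and RApIC versus ATRA both ask what polyIC did, without and with ATRA, and have no array in common. Of 35 members, 32 had the same sign in both, against 68.8% of all genes. The 10 members called in pIC versus PBS had the same sign in RApIC versus ATRA in 10 of 10 cases, against 95.9% of all called genes, and 5 were called there too (50%, against 36.1%). These 5 were Ctsh, Gaa, Ulk1, Map1lc3b and Gabarapl1. The 4 risers, Lamp2, Scarb2, Ctsz and Becn1, were higher in RApIC than in ATRA by 0.19 to 0.31 without passing. The arrays of the groups did not overlap for 28 of 35 members in pIC versus PBS, against 43% of all genes, and for 16 of 35 in RApIC versus ATRA, against 24.1%. These shares of all genes, like the 68.8% above, include the dim genes, while all 35 members lay above the dimmest 40%. The same shares among brighter genes are not given, so the members' excess is not read as particular to them. The median over the members was -0.08 in pIC versus PBS and -0.14 in RApIC versus ATRA, where the median over all genes was 0.0013 and -0.0033.

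The calls depended on single arrays. In pIC versus PBS, 6 members were called without PBS replicate 1, 5 without PBS replicate 2, 2 without pIC replicate 1 and 1 without pIC replicate 2, where the lone pIC array was assumed to vary like the other groups. Map1lc3b lost its call only without pIC replicate 2, and Lamp2, Ulk1 and Gabarapl1 only without either pIC array. Becn1 also lost it without PBS replicate 2, Ctsz without PBS replicate 1 or 2, and Scarb2 and Psap without any PBS array. In RApIC versus ATRA, 4 were called without ATRA replicate 2, ATRA replicate 3 or RApIC replicate 3, 3 without RApIC replicate 1, and 12 without RApIC replicate 2. Ctsl lost its call without any 1 ATRA array or RApIC replicate 1, Ulk1 and Map1lc3b without ATRA replicate 2 or RApIC replicates 1 or 3, Map1lc3b also without ATRA replicate 3, and Gabarapl1 without ATRA replicates 1 or 3 or RApIC replicates 1 or 3. The 5 members gained without RApIC replicate 2 were Lamp2, Ctsz, Npc2 and Becn1, all higher, and Foxo3, lower. This gain was not set against the share of all genes called in the same fit. A wider set of lysosome and autophagy genes, given below, also had its highest counts there, with 14 higher and 22 lower. When only the arrays of the 2 groups compared were fitted, Gaa and Psap lost their calls in pIC versus PBS, and only Ctsh and Gaa kept theirs in RApIC versus ATRA. Scarb2 and Ctsz lost theirs in pIC versus PBS under cyclic loess scaling.

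Against PBS, the RApIC arrays showed lower Ctsh, Map1lc3b and Gabarapl1. Without RApIC replicate 2, 9 members were called: Lamp2 (0.45), Ctsz (0.47) and Becn1 (0.37) were also higher, and Gaa (-0.34), Tpp1 (-0.29) and Ulk1 (-0.49) also lower. That count was not set against the share of all genes called in the same fit. The wider set given below also had its highest counts there, with 5 higher and 19 lower, so the gain is not read as particular to the members. No member was called without PBS replicate 2 or without RApIC replicate 3. With PBS replicate 3, any ATRA array, either pIC array or RApIC replicate 1 left out, 1 was called, and in a fit of the RApIC and PBS arrays alone none was.

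No member passed in either comparison of arrays with and without ATRA. In ATRA versus PBS the members' differences ran from -0.28 (Wipi1) to 0.49 (Ctsh) with a median of 0.05, and in RApIC versus pIC from -0.35 (Wipi1) to 0.28 (Galc) with a median of -0.03. Ctsh, Ctsl, Gaa and Lipa were higher on every ATRA array than on every PBS array, and Wipi1, Npc2 and Sqstm1 lower, that is 7 of 35 members without overlap against 12.7% of all genes. In RApIC versus pIC, 9 of 35 did not overlap, against 27.2% of all genes. These 2 comparisons have no array in common, and 23 of 35 members had the same sign in both, against 54.9% of all genes. Here too the shares of all genes include the dim genes. The interaction, which asks whether the effect of polyIC differed with ATRA, was called by limma for 0 members and 0% of all genes, and 1 member, Lipa (-0.29 ± 0.13, adjusted p = 0.794), had an unadjusted p under 0.05 (6.27% of all genes).

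**Figure D4:**
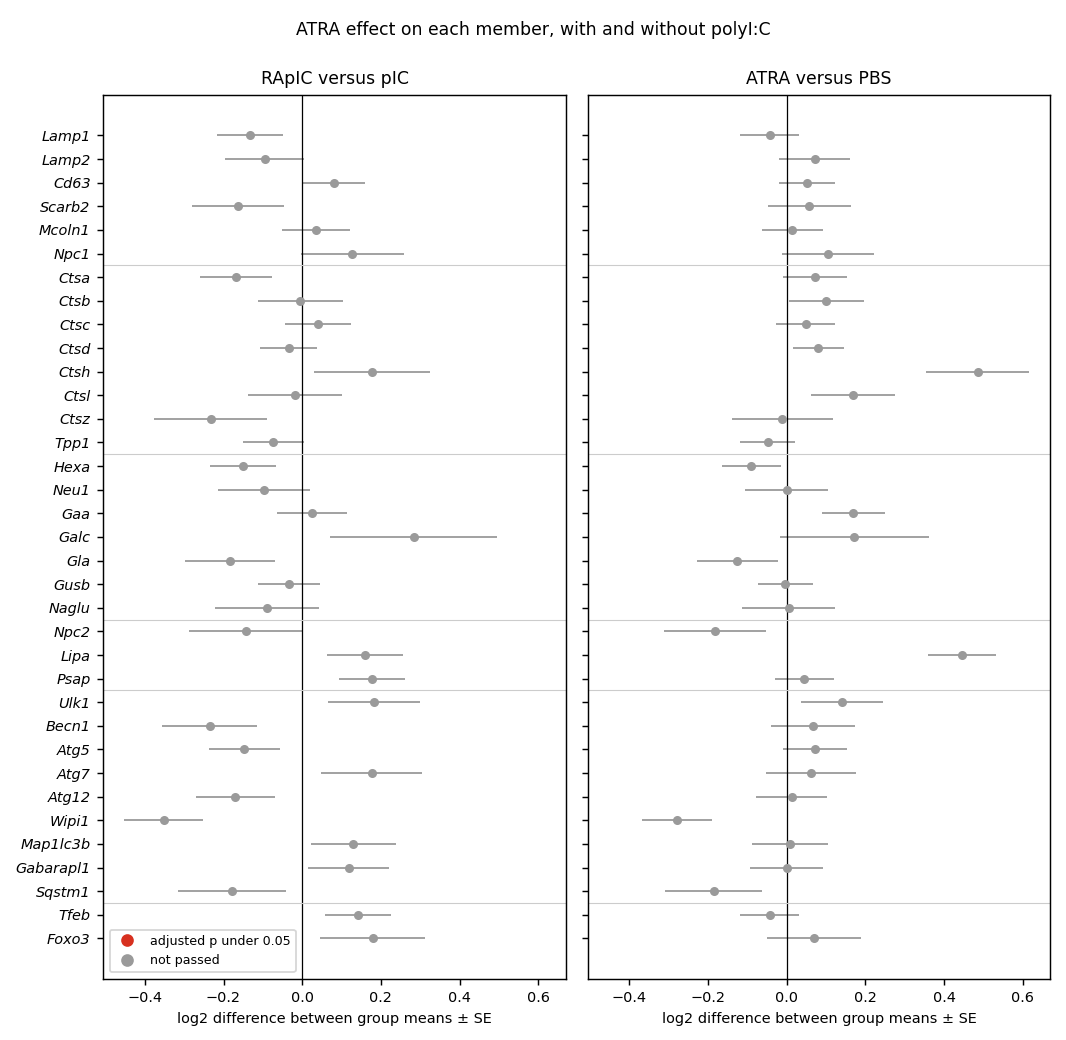
Log2 difference between group means (horizontal axis, ± standard error) of the 35 measured members, by role, for RApIC versus pIC (left) and ATRA versus PBS (right). No member passed in either panel; Wipi1 lies at -0.35 on the left and -0.28 on the right, and Ctsh and Lipa at 0.49 and 0.44 on the right.

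Taking the median over the 35 members of each array's log2 distance from the PBS mean, the RApIC arrays lay at -0.105 to -0.0958, the pIC arrays at -0.103 to -0.0838, the ATRA arrays at 0.0067 to 0.0474 and the PBS arrays at -0.0295 to 0.0188. The arrays with polyIC all lay below those without it. By role, the proteases lay at -0.18 to -0.09 in RApIC, -0.14 to -0.03 in pIC, 0.07 to 0.12 in ATRA and -0.07 to 0.04 in PBS. The membrane proteins overlapped across all groups, at -0.04 to 0.03 in RApIC, 0.01 to 0.03 in pIC, 0.00 to 0.10 in ATRA and -0.03 to 0.04 in PBS. Autophagy machinery lay at -0.25 to -0.09 in RApIC, -0.06 to 0.09 in pIC, 0.01 to 0.03 in ATRA and -0.01 to 0.05 in PBS. Its pIC arrays fell on both sides of the PBS range. The glycosidases lay at -0.28 to -0.10 in RApIC, -0.09 to -0.05 in pIC, -0.06 to 0.12 in ATRA and -0.03 to 0.02 in PBS. For lipid handling and the 2 transcription factors, the pIC arrays lay below all PBS arrays, while RApIC and PBS overlapped.

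**Figure D5:**
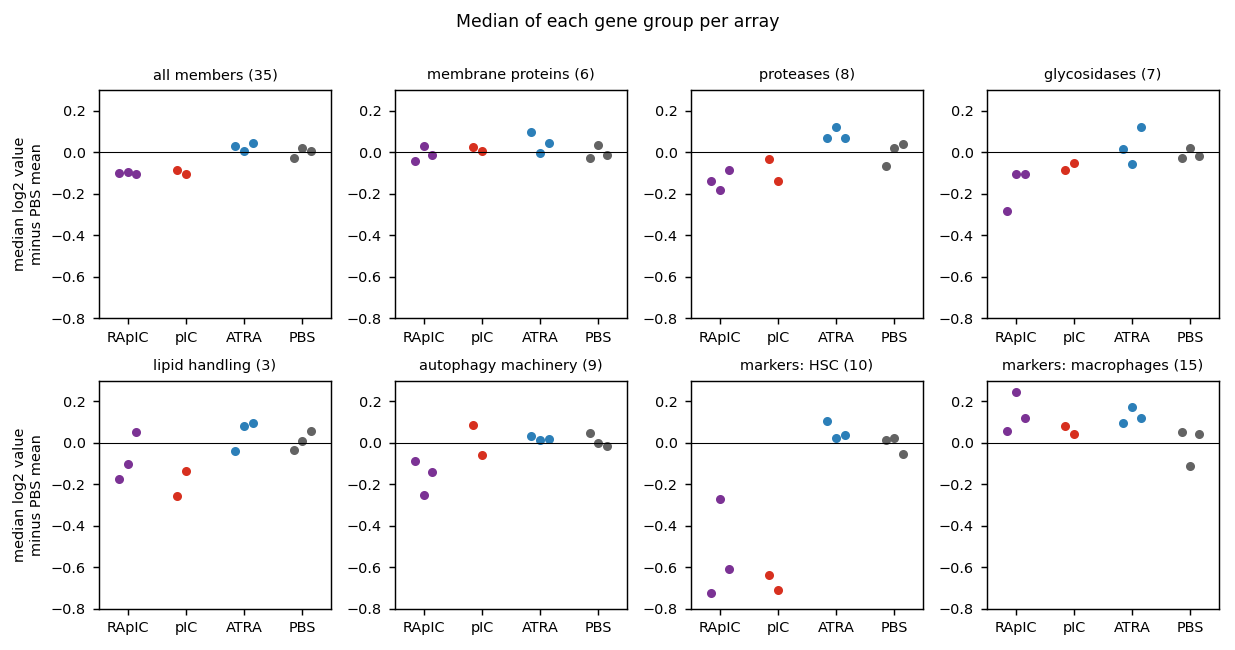
Median log2 value of each gene group on each array (points), minus the PBS mean of each gene, with the number of measured genes in brackets. For all 35 members the RApIC and pIC arrays lie between -0.105 and -0.0838; HSC markers, drawn on the same scale, reach -0.72 in RApIC.

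A wider set of 156 genes of the same pathways in 6 lists, 147 of them measured, was read in the same comparisons. In pIC versus PBS 12 rose and 12 fell, 24 of 147 (16.3%) against 14.7% of all genes, with 1 to 16 higher and 2 to 14 lower when single arrays were left out. The lowest counts came without pIC replicate 2. For RApIC versus ATRA 5 rose and 12 fell (11.6%, against 7.21% of all genes). The range there was 1 to 14 higher and 5 to 22 lower, with 14 and 22 without RApIC replicate 2 and 1 and 5 without RApIC replicate 3. In RApIC versus PBS 2 rose and 6 fell (5.44%, against 3.11% of all genes). There the range was 0 to 5 higher and 2 to 19 lower, with 5 and 19 without RApIC replicate 2, and 0 and 2 without PBS replicate 2 or RApIC replicate 3. In ATRA versus PBS and RApIC versus pIC limma called 0. At an unadjusted p under 0.05 these held 9 and 21 of 147, against 6.8% and 10.1% of all genes. The median per array was read for each list as well. In pIC it lay above all PBS arrays for the lysosomal proton pump (0.11 to 0.19) and other autophagy machinery (0.06 to 0.07). The same held for regulators of TFEB and of the nutrient-sensing complex mTORC1 (0.03 on each pIC array). For the other lists the pIC and PBS arrays overlapped.

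In pIC versus PBS, 3 lysosomal enzymes outside the member list differed by more than any member did. Ctss encodes cathepsin S, a protease that trims the MHC class II invariant chain. It read 10.73, 9.11 and 10.00 in RApIC, 10.56 and 10.31 in pIC, 8.47, 8.35 and 8.57 in ATRA, and 7.86, 8.24 and 8.38 in PBS. It rose 4.84-fold in pIC versus PBS (2.27 ± 0.35, adjusted p = 0.00355) and 2.8-fold in RApIC versus ATRA (adjusted p = 0.0205). Ctsf, the cysteine protease cathepsin F, read 6.78, 7.44 and 6.78 in RApIC, 6.35 and 6.10 in pIC, 7.87, 7.99 and 8.06 in ATRA, and 8.14, 8.17 and 7.93 in PBS. Its level was 0.277 times that of PBS in pIC (-1.85 ± 0.18, adjusted p = 0.000666), and it fell by 0.97 in RApIC versus ATRA (adjusted p = 0.00869). Sgsh, the sulfamidase that degrades heparan sulfate, fell to 0.354 times the PBS level in pIC and to 0.495 times the ATRA level in RApIC (adjusted p = 0.00260 and 0.0124). No array with polyIC reached any array without it for Ctss, Ctsf or Sgsh. The pIC versus PBS calls of these 3 genes and the RApIC versus ATRA calls of Ctsf and Sgsh held without any single array, but Ctss lost its RApIC versus ATRA call without any 1 ATRA array or RApIC replicate 3. Of 29 measured genes in that list, 2 rose and 3 fell in pIC versus PBS, and both counts changed when single arrays were left out.

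Of 29 further membrane and sorting proteins, 5 rose and 4 fell in pIC versus PBS (0 to 5 each with single arrays left out). Cln3, a lysosomal membrane protein mutated in a human neuronal ceroid lipofuscinosis, fell by 0.51 (SE 0.09, adjusted p = 0.00600), and the amino acid sensor Slc38a9 fell by 0.47 (SE 0.11, adjusted p = 0.0158). Cln3 lost its call without pIC replicate 2, and Slc38a9 without either pIC array. Of the genes that rose, Slc11a2 was higher by 0.60 ± 0.15 and Tmem192 by 0.65 ± 0.16 (adjusted p = 0.0227 and 0.0239). Their calls were lost without either pIC array. Slc11a2 also lost its call without PBS replicates 2 or 3, and Tmem192 without PBS replicates 1 or 2. In RApIC versus ATRA 5 of 29 fell and 0 rose by limma (3.71% of all genes fell), while without RApIC replicate 2 the counts were 5 lower and 4 higher, and 2 fell without any 1 ATRA array, RApIC replicate 1 or RApIC replicate 3. The lowest adjusted p among them was that of Igf2r, a receptor that sorts enzymes to lysosomes (-0.60 ± 0.10, adjusted p = 0.00804), and this call held without any single array. The proton pump that acidifies lysosomes, the V-ATPase, had 1 of 15 measured subunits called in each of pIC versus PBS, RApIC versus ATRA and RApIC versus PBS. This was Atp6v0a2, higher by 0.62, 0.53 and 0.51. Its pIC versus PBS call was lost without either pIC array, its RApIC versus ATRA call without ATRA replicates 2 or 3 or RApIC replicates 1 or 3, and its RApIC versus PBS call in 7 of the 11 fits with an array left out, those without PBS replicate 3, ATRA replicates 1 or 2 or RApIC replicate 2 being the exceptions.

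Among 30 regulators of TFEB and of mTORC1, the nutrient-sensing complex that restrains autophagy, 3 rose and 3 fell in pIC versus PBS. Both counts changed when single arrays were left out. Rheb, the GTPase that activates mTORC1, rose by 0.53 ± 0.11 (adjusted p = 0.0101). Of the sestrins, which inhibit mTORC1, Sesn2 rose by 0.86 ± 0.19, while Sesn1 and Sesn3 fell by 0.78 (SE 0.18) and 0.80 (SE 0.18) (adjusted p = 0.0143, 0.0173 and 0.0155). These 4 genes lost their calls without pIC replicate 2, the sestrins also without pIC replicate 1, and Sesn1 and Sesn3 also without PBS replicate 2. Of 31 further autophagy genes, 1 passed in pIC versus PBS: Atg3, the enzyme that couples LC3 to lipid, rose by 0.54 ± 0.12 (adjusted p = 0.0159), a call lost without PBS replicate 1 or either pIC array. Of 13 measured cargo receptor and mitophagy genes, 2 fell in pIC versus PBS, namely Calcoco1, by 0.57 (SE 0.10), and Pink1, by 0.44 (SE 0.10). Calcoco1 lost this call without pIC replicate 2, and Pink1 without PBS replicate 2, PBS replicate 3 or either pIC array. Pink1, a kinase that marks damaged mitochondria, read 8.87, 9.06 and 8.95 in RApIC, 9.24 and 9.21 in pIC, 9.69, 9.68 and 9.61 in ATRA, and 9.47, 9.70 and 9.81 in PBS. The RApIC arrays were the lowest, with no overlap with any other group. Pink1 fell by 0.70 in RApIC versus ATRA and in RApIC versus PBS (SE 0.09 each, adjusted p = 0.00288 and 0.00451), and both calls held without any single array.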

How the data were processed

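RNA of the sorted HSCs was labelled with biotin after PicoPure extraction and DNase treatment, per the labels' protocols. Values of 41345 probe sets were deposited on a log2 scale, and the oligo package 1.36.1, RMA and limma 3.28.20 are named per the submitters' processing notes. Array medians of 6.19 to 6.28 leave no visible difference in overall level, and the normalization removes any shift common to all genes. The number of arrays limits the precision.

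Probe sets were named through the platform's gene table, which gave 23521 probe sets 1 symbol, 1814 several and did not list 16010. Of those with 1 symbol, 23328 had a gene ID in the reference table. Each of 22180 genes was represented by its brightest probe set on average over 11 arrays, and 1 member, Npc1, had more than 1 probe set. A limma 3.58.1 model (R 4.3.3) of 4 group means was fitted to all arrays, with 7 residual degrees of freedom, and 6 contrasts were tested, two-sided. The threshold was an adjusted p under 0.05 by the Benjamini-Hochberg method over all genes of a contrast. The fit was also tested on simulated data. Labels name no batch.

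Members passing in any contrast, and the 3 with the smallest p in a contrast with fewer than 3 passing, were described by array. Other pathway genes were named from the 4 with the smallest adjusted p per list and contrast. The members and lists were chosen with earlier results of these data known. Lists are described by counts and medians, without a test. The alternatives were cyclic loess, leaving out the dimmest 40% of genes, averaging the probe sets of a gene, the replicate number as a block, only the groups compared, a trend and robust prior, array weights and each array left out. Promoter sequences came from RefSeq (GRCm38.p6). Of the marker lists, the neutrophil list had 0 of 13 called in pIC versus PBS, B cells 0 of 9, dendritic cells 1 of 9, and mast cells and basophils 1 of 8. Python 3.11.15, numpy 2.4.6, pandas 2.3.3 and matplotlib 3.10.9 were used.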

Additional observations from a re-analysis of the deposited data

How the results depend on the processing

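No member called in a contrast changed sign under any alternative, and of 140 checks of the 20 calls outside the leave-one-out fits, 124 kept the call and 16 lost it, of which 10 were lost in fits of only the groups compared. With 2 or 3 arrays a group, leaving out single arrays gave 1 to 11 called members in pIC versus PBS, 3 to 12 in RApIC versus ATRA and 0 to 9 in RApIC versus PBS, and 0 in ATRA versus PBS, RApIC versus pIC and the interaction. The member median then ran from -0.10 to -0.05 in pIC versus PBS, 0.0033 to 0.0481 in ATRA versus PBS, -0.034 to -0.0048 in RApIC versus pIC, -0.16 to -0.10 in RApIC versus ATRA, -0.12 to -0.0667 in RApIC versus PBS and -0.0826 to -0.03 in the interaction. In RApIC versus ATRA, 2 members were called with only the groups compared and 12 with array weights. In RApIC versus PBS, 7 were called without the dimmest genes, 0 with only the groups compared, 6 with the trend and robust prior and 9 with array weights. These counts differ with the genes and arrays tested, and for the prior and the weights the cause was not tested. Cyclic loess moved the member median to -0.17 in pIC versus PBS, 0.0355 in RApIC versus pIC, -0.13 in RApIC versus PBS and -0.0146 in the interaction, and the mean member score per array, a check chosen after seeing the data, to -0.13 in RApIC and -0.16 in pIC, against -0.10 and -0.09; the cause was not tested. The mean of probe sets gave a median of -0.12 in RApIC versus ATRA, and array weights gave -0.16 there and -0.029 in the interaction. With the replicate number as a block, 8 members were called in pIC versus PBS, 7 in RApIC versus ATRA and 2 in RApIC versus PBS; Scarb2 and Gaa lost their calls in the first and Gabarapl1 in the last. No pairing by number was seen: over 15 same-numbered pairs the correlation of deviations from group means was -0.109 to 0.0976, and 0 of 11 arrays were closest to their own number. With 2 or 3 arrays a group, this cannot exclude that a number marks a shared animal or day. Over all genes, the 1599 calls of RApIC versus ATRA became 305 with only the groups compared and 4588 with array weights. The 690 of RApIC versus PBS became 70 and 3127 in these fits, 1212 without the dimmest genes and 1044 with the trend and robust prior. The 1 of ATRA versus PBS became 4 with the block, 16 without the dimmest genes, 22 with the trend and robust prior and 28 with array weights, and the 0 of RApIC versus pIC became 112 with array weights.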
